A study of Homo sapiens with 4 samples.

Results

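The mitosis and spindle genes were the subject of this comparison. They are 56 of the 58302 genes listed in the deposited tables, taken as a named list of mitotic kinases, cyclins, checkpoint, kinetochore, spindle, cytokinesis and condensin genes by function. No cutoff on a measured value entered the list, although it was drawn up with earlier results of these data known. The libraries were made from NCI-H838, a human line of non-small cell lung carcinoma, engineered with a guide RNA against MIB1 and with Cas9 under doxycycline (dox) control. These engineered cells (MIB1-iKO) are clonal in the study's methods, and the labels do not name the clone, so the values describe a clone and not the line as a whole. RNA-seq was performed at day 3 on 2 samples without dox and 2 samples given 0.5 μg/mL dox. Every sample carried the construct, so the groups differed in dox and in what dox induced, and no sample of parental cells given dox was analysed here.

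Entry into mitosis is driven by CDK1 bound to cyclin B, which the CDC25 phosphatases switch on, and the Polo and Aurora kinases then organise centrosomes, kinetochores and the spindle. The spindle checkpoint holds back the anaphase-promoting complex until every kinetochore is attached, after which CDC20 directs that complex to securin and cyclin B. The transcripts of these genes rise in G2 and are low in G1, so in a culture their level follows both the share of dividing cells and the RNA per cell, and in bulk RNA fewer dividing cells and less RNA per cell cannot be told apart. Their promoters are held down in G1 by the DREAM complex, and are opened in G2 by B-MYB and FOXM1, through the cell cycle genes homology region (CHR), a short element near the start of transcription that is often accompanied by CCAAT boxes bound by NF-Y.

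Promoter windows of 300 bases, from 250 before to 50 after an annotated start, were found for 47 of the 56 genes in RefSeq on GRCh38.p14. The CHR core TTTGAA, searched on both strands, was present in a window of 36 of the 47 genes (76.6%), against 18.2% of all 27305 genes with a window and 13.4% of those that were also tested here. CCAAT, searched in the same way, was present in 37 of the 47 (78.7%), against 39.7% of all genes and 42.7% of those tested. Both were present in 29 (61.7%), against 8.37% of all genes and 7.32% of those tested. A match is a description of the letters in the window and not a shown binding site. The stretches just before the start of 4 of the best known genes of the list are shown because they carry the elements that the list shares, with CHR and CCAAT matches in capitals. They are written 5′ to 3′ on the gene's own strand and end at the last base before the start. That of CDK1 is kept short because the bases before it lie in an exon of another CDK1 transcript.
CDK1, chr10:60778448-60778477, plus strand: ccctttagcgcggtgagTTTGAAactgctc
PLK1, chr16:23678739-23678888, plus strand: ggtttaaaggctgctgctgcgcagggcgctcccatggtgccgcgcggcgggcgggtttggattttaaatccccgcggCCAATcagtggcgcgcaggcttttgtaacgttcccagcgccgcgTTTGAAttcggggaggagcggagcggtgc
MKI67, chr10:128126424-128126573, minus strand: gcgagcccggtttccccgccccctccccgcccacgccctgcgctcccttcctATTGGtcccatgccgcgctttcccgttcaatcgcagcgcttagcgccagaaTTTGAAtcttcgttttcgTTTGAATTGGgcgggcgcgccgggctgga
CDC20, chr1:43358831-43358980, plus strand: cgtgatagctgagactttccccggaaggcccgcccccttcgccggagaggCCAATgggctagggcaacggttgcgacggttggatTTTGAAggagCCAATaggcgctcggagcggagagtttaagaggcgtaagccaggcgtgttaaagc
The CHR match in the stretch of CDK1 begins 13 bases before the start. The full window of CDK1 holds further TTTGAA matches at 69 bases before the start and, on the opposite strand, at base 10 after it, as well as inverted CCAAT boxes at 78 and 46 bases before it, which the short stretch does not show. The single CHR match of PLK1 begins 29 bases before its start. MKI67, the gene of the proliferation antigen Ki-67, holds TTTGAA at 47 and at 29 bases before its start, and the second match overlaps an inverted CCAAT by 1 base. In CDC20 the match at 65 bases before the start lies between CCAAT boxes at 100 and 55 bases.

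Total counts per library were between 15943025 and 24398411, lower in both dox libraries than in both no dox libraries. MIB1, the targeted gene, checks the labels: it had 598 and 588 reads in no dox replicates 1 and 2 and 90 and 59 reads in dox replicates 1 and 2, or -2.58 ± 0.23 on the log2 scale (limma, with SE; adjusted p = 0.000375). Of 10 epithelial, mesenchymal and lung lineage markers, 6 stood above 1 RPKM in every library (KRT7, KRT8, KRT18, EPCAM, CDH1 and VIM). The lung lineage factor NKX2-1 was listed at 0 in all 4 libraries, as were KRT19 and CDH2. Of 8 markers of immune, fibroblast and endothelial cells, 7 were under 1 RPKM in every library, and CD14 was the exception at up to 4.45 RPKM. The summed level of the first list was 153 and 168 RPKM without dox and 138 and 149 RPKM with dox, and that of the second was between 4.76 and 5.18 RPKM in every library. The study describes the 2 samples of a condition as biological replicates. The labels do not say how they were grown, and the p-values rest on the spread between these samples, which limma pools over genes.

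All 56 genes passed the filter on low counts. They rested on between 23 and 20551 reads in a library, and 55 of them had at least 100 reads in every library. The exception was INCENP, the scaffold of the chromosomal passenger complex, with 41, 43, 29 and 23 reads. Per length of gene model, the levels without dox ran from 0.468 RPKM for INCENP to 369 RPKM for CCNB1, the gene of cyclin B1. Above 100 RPKM were 9 genes, which in falling order were CCNB1, CDK1, CCNA2 (cyclin A2), PTTG1 (securin), BIRC5 (survivin), UBE2C (an E2 enzyme of the anaphase-promoting complex), NUF2 (a kinetochore subunit), ECT2 (which acts in cytokinesis) and AURKA (Aurora A). Neighbours in this order such as BIRC5 (138 ± 14.4 RPKM, SD, n = 2) and UBE2C (129 ± 3.37 RPKM, SD, n = 2) lay within their spread of each other, whereas CCNB1 (369 ± 48.0 RPKM, SD, n = 2) stood apart from CDK1 (189.5 ± 21.3 RPKM, SD, n = 2). Under 5 RPKM were 8 genes, INCENP, CENPE, MKI67, CENPF, KIF14, ASPM, KIF4A and KIF20B, among them the longest transcripts of the list.

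**Figure D1:**
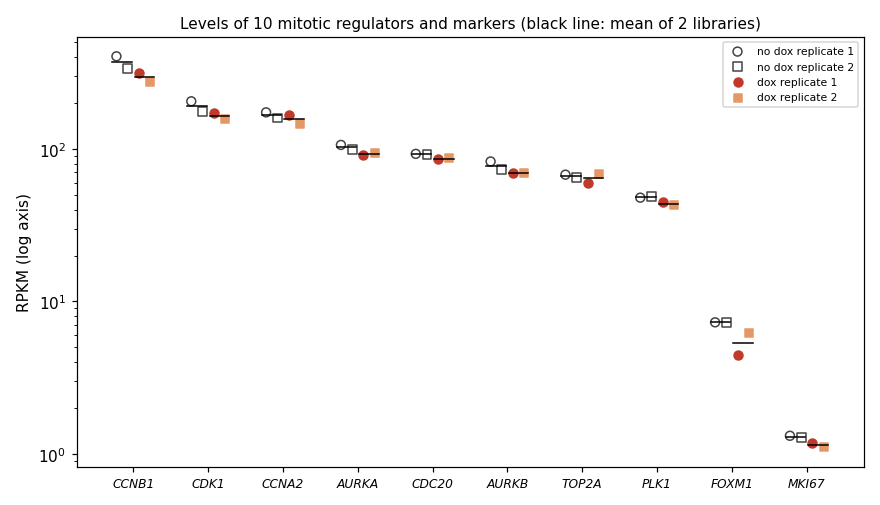
RPKM on a log axis of 10 mitotic regulators and markers in each of the 4 libraries, with the mean of each group of 2 as a black line. Levels span from CCNB1 at 369 RPKM to MKI67 at 1.30 RPKM without dox, and for each gene the means of the groups lie close together, FOXM1 having the lowest ratio of dox to no dox among the 10 (0.735).

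The comparison of dox with no dox at day 3 asks how the transcripts of the mitotic programme stood once MIB1 had been disrupted. Most of the list was slightly lower with dox: 47 of the 56 genes (83.9%) had a log2 fold change below 0, where 50.1% of the 16181 genes tested did, and the median was -0.11 against 0.00 (-0.0004) over all genes tested. Calls required a 2-fold change with an adjusted p no higher than 0.05 (limma), and 0 members met this, where 0.0371% of all genes tested did. The adjusted p alone was met by 0 members, where 0.068% of all genes tested met it, and the lowest in the list was 0.355, for CCNB1. Before adjustment, p was under 0.05 for 5 members (8.93%), where it was for 9.28% of all genes tested. All 5 (FOXM1, NCAPG, HMMR, CDC25B and CCNB1) were lower with dox and 0 were higher, where 4.59% and 4.68% of all genes tested were lower and higher. The edgeR quasi-likelihood test had 8 lower and 0 higher, where 4.83% and 4.23% of all genes tested were. DESeq2 had 5 and 0, where 2.97% and 2.63% were, and neither tool had a member at an adjusted p of at most 0.05. The differences were small in size: the 95% confidence intervals of 55 genes lay within 1 on the log2 scale, the exception being INCENP, and those of 44 lay within 0.5. The interval held 0 for 51 genes. For a single gene, a two-sided exact permutation of 2 against 2 libraries has 0.333 as its smallest p, so the p-values given are from limma, which pools information on the spread over genes.

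**Figure D2:**
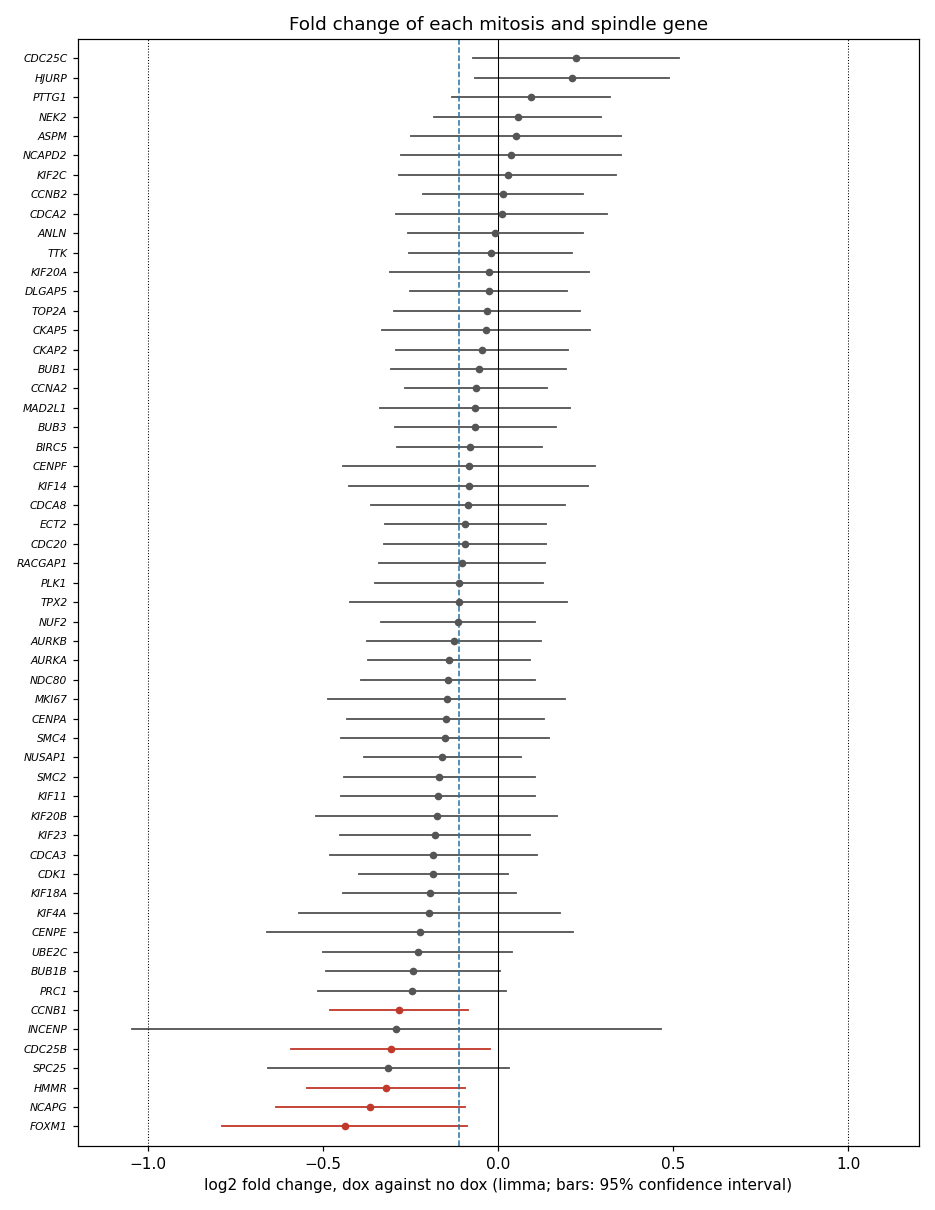
The log2 fold change of dox against no dox for each of the 56 genes (limma, points) with its 95% confidence interval (bars), sorted; red marks an unadjusted p under 0.05, the dashed line the median of the list (-0.11) and the dotted lines a 2-fold change. The estimates run from -0.44 for FOXM1 to 0.22 for CDC25C, and all intervals but that of INCENP stay inside the dotted lines.

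The dox libraries were then taken apart. Per library, values are given as log2 CPM, the log2 of counts scaled to library size, after the libraries had been brought to common quantiles. Dox replicate 1 was below both no dox libraries in 44 of the 56 genes, where 35.9% of all genes tested were, and its median difference from the no dox mean was -0.18. Dox replicate 2 was below both no dox libraries in 29 genes, where 35.4% of all genes tested were, and its median difference was -0.06. In 33 of the 56 genes both dox libraries lay below the no dox mean, where 30.4% of all genes tested did. In 16 only dox replicate 1 did, where 19.1% of all genes tested did. In 1 only dox replicate 2 did, and in 6 both lay above it. The groups did not overlap in 25 genes lower with dox, against 19.1% of all genes tested, and in 3 genes higher with dox (CDC25C, HJURP and PTTG1), against 19.5% of all genes tested. The group difference exceeded the gap between replicates in both groups in 20 genes (35.7%), where 27.1% of all genes tested did so. Without dox replicate 1 the median log2 fold change was -0.06 and 35 genes were below 0, and without dox replicate 2 it was -0.18 and 49 genes were below 0.

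How far the dox libraries differed from each other depended on the scaling. On common quantiles dox replicate 1 was lower than dox replicate 2 in 43 of the 56 genes, where 50.7% of all genes tested were, and no dox replicate 1 was lower than no dox replicate 2 in 29, where 48.4% of all genes tested were. After TMM scaling the count was 35, where 50.7% of all genes tested were lower, and on the authors' RPKM it was 30, where 45.7% were. With scaling to library size alone it was 47, where 63.7% of all genes tested were lower. The median differences of dox replicates 1 and 2 from the no dox mean were -0.16 and -0.08 after TMM scaling, and -0.15 and -0.11 on log2(RPKM + 0.1). With library size alone they were -0.21 and -0.01. Under each of these scalings both medians were below 0 and that of dox replicate 1 was the lower.

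**Figure D3:**
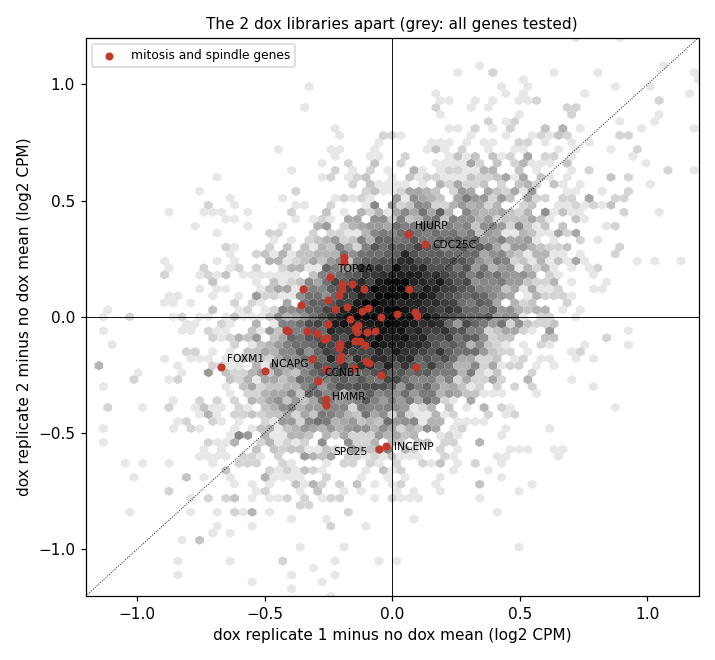
Difference from the no dox mean in dox replicate 1 (horizontal axis) and dox replicate 2 (vertical axis), in log2 CPM; red points are the 56 mitosis and spindle genes, grey the density of all 16181 genes tested, and the dotted line marks equal values. The red points sit mostly to the left of 0, with a median of -0.18, and closer to 0 on the vertical axis, with a median of -0.06.

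Cyclin B1, CDK1 and their activators included 3 of the 5 genes with an unadjusted p under 0.05 and had a median log2 fold change of -0.19 over 7 genes. CCNB1 stood at log2 CPM 9.67 and 9.58 in no dox replicates 1 and 2 and at 9.33 and 9.35 in dox replicates 1 and 2, so that both dox libraries were low to about the same extent. Its log2 fold change was -0.28 ± 0.09 (limma, with SE; unadjusted p = 0.00812, adjusted p = 0.355), and its reads, 20551, 15920, 10442 and 10834, were the most numerous of the list. The unadjusted p of CCNB1 depended on the scaling. It was 0.0396 by limma after TMM scaling and 0.0446 by edgeR, and it was not under 0.05 by limma on log2(RPKM + 0.1) or log2(RPKM + 1). CDK1, the kinase that cyclin B1 activates, had log2 CPM of 8.63 and 8.53 without dox and 8.37 and 8.41 with dox. The groups did not overlap, and the log2 fold change was -0.19 ± 0.10 (limma, with SE; adjusted p = 0.605), with a 95% confidence interval from -0.40 to 0.03. CCNA2, whose cyclin acts in S phase and G2, had 8.84 and 8.86 without dox, against 8.78 and 8.79 in dox replicates 1 and 2 (log2 CPM). Its log2 fold change was -0.06, with an interval from -0.27 to 0.14. CCNB2, the gene of cyclin B2, was at 0.01 on the log2 fold change scale.

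FOXM1, the transcription factor of the G2 programme, had the lowest log2 fold change of the list. Its log2 CPM was 4.74 and 4.72 without dox, 4.06 in dox replicate 1 and 4.52 in dox replicate 2. Both dox libraries lay below both no dox libraries, dox replicate 1 much further than dox replicate 2. The log2 fold change was -0.44 ± 0.16 (limma, with SE; unadjusted p = 0.0176, adjusted p = 0.414), -0.67 without dox replicate 2 and -0.22 without dox replicate 1. FOXM1 overlaps ITFG2 and RHNO1 on the opposite strand, which had up to 1270 reads in a library against 249 to 626 for FOXM1. No source says that counting was by strand, so reads of such partners cannot be told apart from its own. An annotated gene on the opposite strand also overlaps 25 other members, among them CCNA2 (EXOSC9), KIF4A (PDZD11), KIF20A (CDC23 and BRD8) and SPC25 (NOSTRIN and G6PC2). The reads of these partners differed widely. They reached 14861 in a library for NCAPD2, against 1110 to 1959 reads of NCAPD2 itself, and 2061 for KIF4A, against 173 to 361. For CDC25C they reached 762, against 445 to 649 of its own. For CCNA2 they reached 2248, against 7111 to 11385, but only 13 for PLK1 and 2 for HMMR. The limit is thus not of the same size in every member.

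The CDC25 phosphatases pointed to opposite sides of 0. CDC25B, which starts the activation of CDK1, had log2 CPM of 5.16 and 5.15 without dox and 4.90 and 4.80 with dox. Its log2 fold change was -0.31 ± 0.13 (limma, with SE; unadjusted p = 0.0362, adjusted p = 0.500). CDC25C, which acts in the feedback that commits the cell to mitosis, had the highest log2 fold change of the list. Its log2 CPM was 4.79 and 4.74 without dox and 4.89 and 5.08 with dox, above both no dox libraries in each dox library. The log2 fold change was 0.22 ± 0.14 (limma, with SE; adjusted p = 0.663) with an interval from -0.07 to 0.52. The difference between CDC25B and CDC25C was not tested, and CDC25C overlaps FAM53C on the opposite strand.

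The mitotic kinases had a median log2 fold change of -0.11 over 5 genes, none with an unadjusted p under 0.05. PLK1, the Polo kinase that acts from mitotic entry to cytokinesis, had log2 CPM of 6.70 and 6.79 without dox and 6.64 and 6.62 with dox. AURKA, which matures centrosomes, had 8.11 and 8.15 without dox and 7.88 and 8.10 with dox, so that dox replicate 1 was low and dox replicate 2 close to the no dox libraries. AURKB, the kinase of the chromosomal passenger complex, had 6.73 and 6.59 without dox and 6.51 and 6.56 with dox. In these 3 genes every dox library was below both no dox libraries, and the log2 fold changes were -0.11, -0.14 and -0.13 (limma, adjusted p = 0.809, 0.738 and 0.785). NEK2, which separates centrosomes, stood at log2 CPM 6.97 and 6.87 without dox and 7.01 and 6.94 with dox. The groups overlapped, and its log2 fold change was 0.06 with an interval from -0.18 to 0.29. The checkpoint kinase TTK was at -0.02 on that scale.

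Among genes of the spindle checkpoint and of the anaphase-promoting complex and its targets, 6 of 7 had a log2 fold change below 0, with a median of -0.07. CDC20, the activator of the complex that the checkpoint holds, stood at log2 CPM 7.37 and 7.44 without dox, against 7.26 and 7.35 in dox replicates 1 and 2, and its difference was -0.09 ± 0.11 (limma, with SE; adjusted p = 0.839). The checkpoint kinase BUB1 and its partner BUB3 had -0.06 and -0.07, and MAD2L1, the gene of the inhibitor MAD2, had -0.07. BUB1B, the gene of the inhibitor BUBR1, had -0.24 (limma, adjusted p = 0.550) and UBE2C -0.23 (limma, adjusted p = 0.615), the lowest of the 7. PTTG1 encodes securin, the inhibitor of separase that is destroyed at anaphase. It was above both no dox libraries in each dox library, with log2 CPM of 7.48 and 7.46 without dox and 7.54 and 7.59 with dox, but the difference was small, at 0.09 ± 0.11 (limma, with SE; adjusted p = 0.836). PTTG1 has named copies in the genome (PTTG2, PTTG3P and PTTG4P), as do 18 other members, and reads shared with them are uncertain.

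Centromere and kinetochore genes had a median log2 fold change of -0.14 over 7 genes. SPC25, a subunit of the NDC80 complex that binds microtubules, showed the opposite order of the dox libraries to FOXM1. Its log2 CPM was 6.09 and 5.82 without dox, 5.91 in dox replicate 1 and 5.39 in dox replicate 2. Only dox replicate 2 was below both no dox libraries, and the log2 fold change of -0.31 ± 0.16 (limma, with SE; adjusted p = 0.586) was -0.05 without dox replicate 2 and -0.57 without dox replicate 1 (limma, unadjusted p = 0.0237). The other subunits listed, NDC80 and NUF2, had -0.14 and -0.11. HJURP, the chaperone that loads the centromeric histone CENP-A, had log2 CPM of 5.93 and 5.91 without dox and 5.98 and 6.28 with dox. Both dox libraries were higher, chiefly dox replicate 2, and the log2 fold change of 0.21 ± 0.13 (limma, with SE; adjusted p = 0.659) was 0.06 without that library and 0.35 without dox replicate 1 (limma, unadjusted p = 0.0329). CENPA itself had -0.15, the kinetochore kinesin CENPE -0.22 and CENPF -0.08.

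INCENP, BIRC5 and CDCA8, of the chromosomal passenger complex, were grouped with CDCA2 and CDCA3. Of these 5 genes 4 were below 0, with a median of -0.09. INCENP had a log2 CPM of 0.83 and 1.02 without dox, 0.90 in dox replicate 1 and 0.37 in dox replicate 2. The dox libraries differed from each other more for INCENP than for any other member, and the log2 fold change of -0.29 ± 0.35 (limma, with SE; adjusted p = 0.854) had an interval from -1.05 to 0.46, so at this depth a difference was not detectable. BIRC5 and CDCA8 (borealin), the other non-catalytic subunits, had -0.08 and -0.09. CDCA3 had -0.19 and CDCA2 0.01.

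On common quantiles all 8 mitotic kinesins were lower in dox replicate 1 than in both no dox libraries, where 35.9% of all genes tested were. Dox replicate 2 was below both in 3 of the 8, near the 35.4% of all genes tested. The median log2 fold change of the 8 kinesins was -0.17. The lowest was KIF4A, a chromosome-bound motor, at -0.20 (limma, adjusted p = 0.776), and KIF2C, which depolymerises microtubules at centromeres, was the only one above 0, at 0.03. KIF11, the motor that pushes spindle poles apart, had -0.17, and KIF18A, which damps chromosome movements, -0.20. The cytokinesis motors KIF23 and KIF20A had -0.18 and -0.03. Dox replicate 1 was likewise below both no dox libraries in the 3 cytokinesis genes, where 35.9% of all genes tested were. The log2 fold changes of these genes, ANLN, ECT2 and RACGAP1, were -0.01, -0.09 and -0.10.

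Spindle assembly and microtubule-associated genes had a median of -0.08 over 8 genes. HMMR, which encodes a spindle-associated receptor for hyaluronan, was low in both dox libraries, with log2 CPM of 8.18 and 8.06 without dox and 7.86 and 7.74 with dox. Its log2 fold change was -0.32 ± 0.11 (limma, with SE; unadjusted p = 0.00881, adjusted p = 0.357), and with 1 library left out it lay between -0.38 and -0.26. TPX2, which targets Aurora A to the spindle, had 7.19 and 7.44 without dox, 6.96 in dox replicate 1 and 7.43 in dox replicate 2. The groups overlapped, and the log2 fold change of -0.11 was -0.35 without dox replicate 2, 0.12 without dox replicate 1 and 0.01 without no dox replicate 2. PRC1, which bundles microtubules at the midzone, had -0.25 (limma, adjusted p = 0.586). NUSAP1 had -0.16, CKAP2 -0.05, CKAP5 -0.03, DLGAP5 -0.03 and ASPM 0.05.

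Condensin, topoisomerase and Ki-67 genes had a median log2 fold change of -0.15 over 6 genes. Dox replicate 1 was below both no dox libraries in each of the 6, where 35.9% of all genes tested were. NCAPG, a regulatory subunit of condensin I, had log2 CPM of 6.35 and 6.42 without dox, 5.89 in dox replicate 1 and 6.15 in dox replicate 2. Both dox libraries were lower, and the log2 fold change was -0.37 ± 0.13 (limma, with SE; unadjusted p = 0.0115, adjusted p = 0.372). NCAPD2, of the same complex, had 0.04, and the core subunits SMC2 and SMC4 had -0.17 and -0.15. NCAPG overlaps LCORL, and NCAPD2 overlaps MRPL51, on the opposite strand. TOP2A, the topoisomerase that untangles sister chromatids, had log2 CPM of 8.55 and 8.61 without dox, 8.34 in dox replicate 1 and 8.75 in dox replicate 2. The dox libraries thus lay on either side of the no dox libraries, and the log2 fold change of -0.03 ± 0.12 (SE) was -0.25 without dox replicate 2, 0.17 without dox replicate 1 and 0.01 without no dox replicate 2. MKI67 had 1.32 and 1.29 RPKM without dox, against 1.19 and 1.11 RPKM in dox replicates 1 and 2, lower in each dox library. Its log2 fold change was -0.15 ± 0.16 (limma, with SE; adjusted p = 0.826) with an interval from -0.49 to 0.19.

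**Figure D4:**
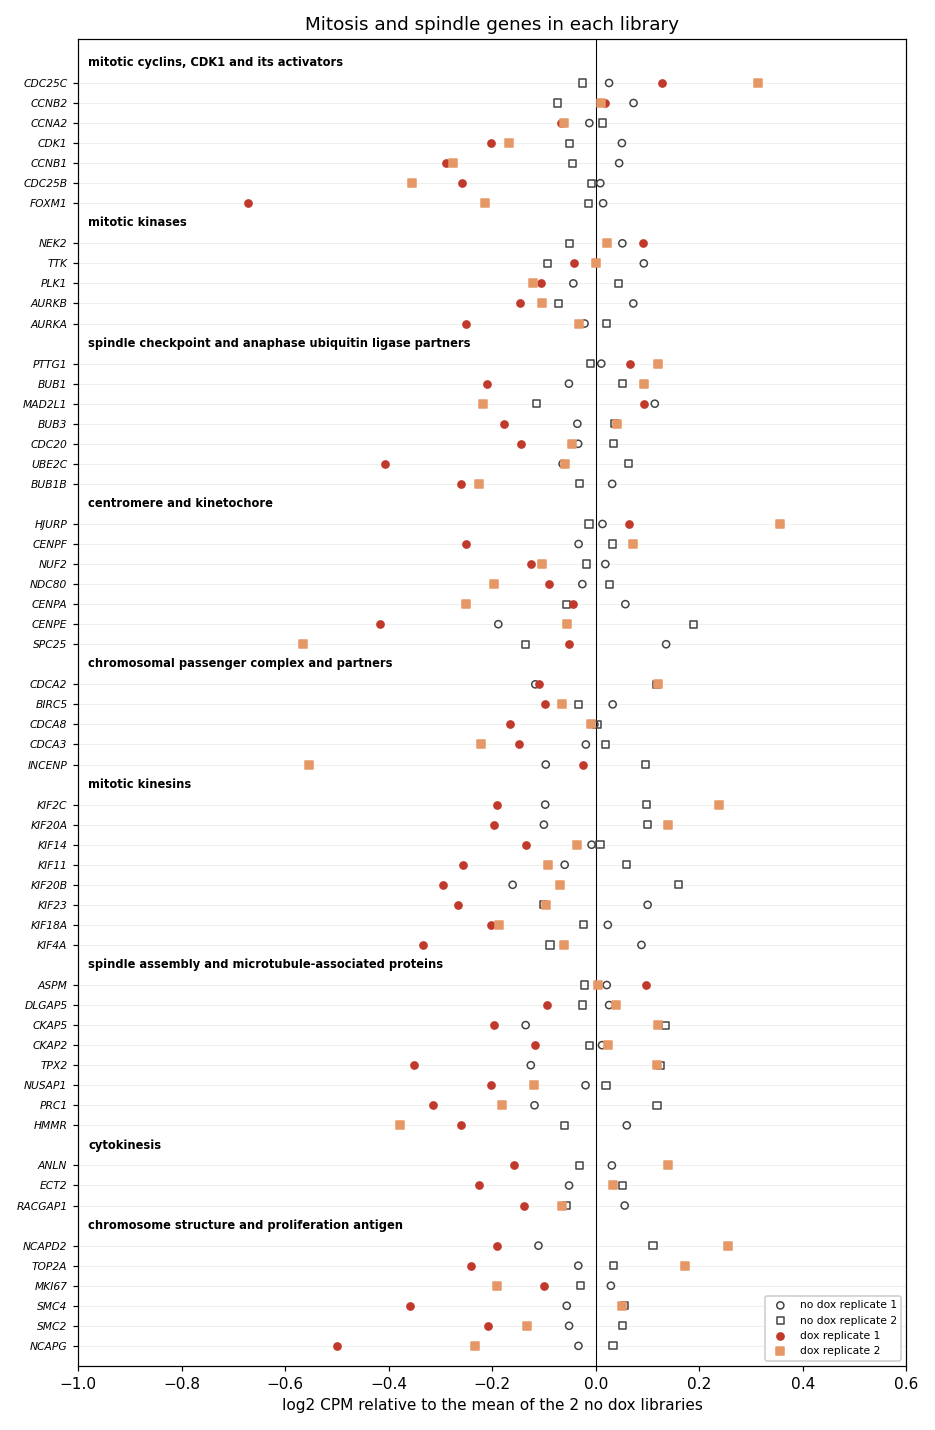
Log2 CPM of each of the 56 genes in the 4 libraries relative to the mean of the 2 no dox libraries (horizontal axis), grouped by role; open symbols are no dox, filled symbols dox, circles replicate 1 and squares replicate 2. Dox replicate 1 lies left of both open symbols in 44 genes, and dox replicate 2 in 29, where 35.9% and 35.4% of all genes tested do.

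The gap between replicates was also set beside transcript length. Across the 56 genes, Spearman's correlation between the gap of dox replicate 1 minus dox replicate 2 and the length of the canonical transcript was -0.36, and for no dox replicate 1 minus no dox replicate 2 it was -0.32. Over the genes tested that had a length (99.7%), the values were -0.23 and -0.19. These are correlations across genes of the same libraries, not across independent samples. Among the 28 longer transcripts, of 3157 to 12716 bases, dox replicate 1 was below dox replicate 2 in 24, with a median gap of -0.24. Among the 28 shorter ones, of 715 to 3119 bases, it was below in 19, with a median gap of -0.04. The median log2 fold change of dox against no dox was -0.10 in the longer and -0.11 in the shorter transcripts, and its Spearman's correlation with length was 0.03. The gaps of the replicates had the same sign in both groups in 34 of the 56 genes (60.7%), against 63.2% of all genes tested. The correlation across genes between the gap without dox and the gap with dox was 0.51 over the members and 0.13 over all genes tested. The part of transcript length in these gaps was not tested.

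**Figure D5:**
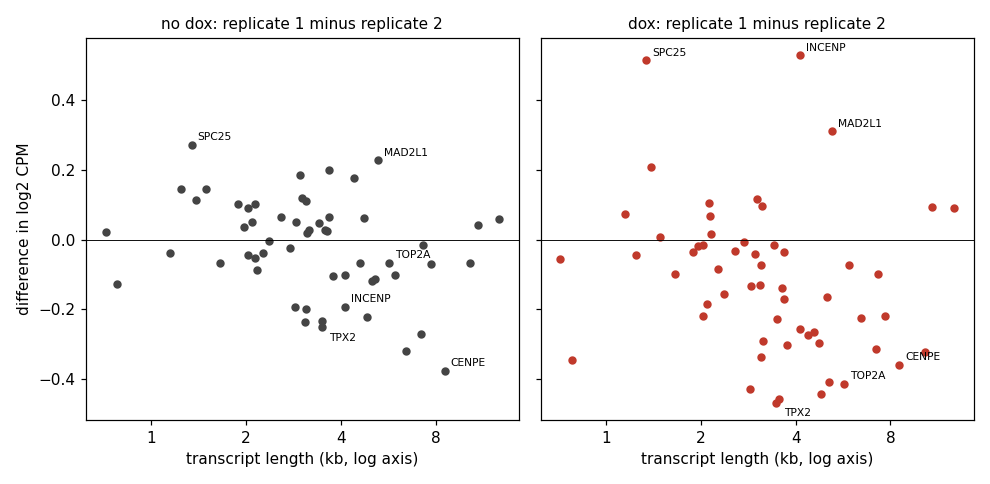
Gap between replicate 1 and replicate 2 in log2 CPM against the length of the canonical transcript in kilobases (log axis) for each of the 56 genes, without dox (left) and with dox (right). The longer transcripts tend to lie lower in both panels, with Spearman's correlation of -0.32 and -0.36. The longest, MKI67 and ASPM, have positive gaps in both panels, and SPC25 lies high in both.

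A further 102 genes of mitosis, in the remainder of the anaphase-promoting complex, cohesin, kinetochore, condensin, spindle and regulators, were all tested. Of these, 75 (73.5%) had a log2 fold change below 0, where 50.1% of all genes tested did, and the median was -0.09. In this list 0 were called, where 0.0371% of all genes tested were. At an unadjusted p under 0.05, 14 were lower and 0 higher (13.7% and 0% of the list). Of all genes tested, 4.59% and 4.68% were. The 3 with the smallest p were CDC16, MYBL2 and ZWINT. CDC16, a subunit of the anaphase-promoting complex, stood at 13.7 and 14.3 RPKM without dox and at 8.54 and 9.20 RPKM with dox. Both dox libraries were low by a similar amount, and the log2 fold change was -0.64 ± 0.14 (limma, with SE; unadjusted p = 0.000427, adjusted p = 0.167). MYBL2 encodes B-MYB, an activator of G2 promoters, and had 45.5 and 48.6 RPKM without dox and 34.8 and 37.2 RPKM with dox, which gave -0.36 ± 0.12 (limma, with SE; adjusted p = 0.355). ZWINT, a kinetochore protein, had -0.40 ± 0.13 (limma, with SE; adjusted p = 0.355).

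By subgroup, of 31 other kinetochore and checkpoint genes, 27 (87.1%) were below 0, where 50.1% of all genes tested were, and the median was -0.20. Of the 31, 8 were lower at an unadjusted p under 0.05, where 4.59% of all genes tested were. Of 16 genes of the anaphase-promoting complex, 7 were below 0 and the median was 0.01. Genes of DNA replication are the nearest list in the cell cycle. Of 54 replication genes 52 (96.3%) were below 0, where 50.1% of all genes tested were, and the median was -0.28. At an unadjusted p under 0.05, 25 were lower and 0 higher, where 4.59% and 4.68% of all genes tested were. Of the 54, 0 were called, where 0.0371% of all genes tested were. An adjusted p of at most 0.05 was found for 0, where 0.068% of all genes tested had one, and the lowest was 0.126 (limma). The median difference of the replication genes from the no dox mean was -0.25 in dox replicate 1 and -0.34 in dox replicate 2. The mitosis and spindle genes had -0.18 and -0.06. Whether the lists differ was not tested.

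Members with TTTGAA in a promoter window had a median log2 fold change of -0.15 over 36 genes, from -0.37 to 0.22. The 11 members with a window but without TTTGAA had -0.06, from -0.31 to 0.09, and the 9 with no window in the table had -0.10. These ranges overlapped widely, and the difference was not tested.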

How the data were processed

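RNA-seq was analysed from tables that the authors deposited for 2 no dox and 2 dox samples, grouped by the sample labels. Per the study's methods, reads left after removal of ribosomal sequences were aligned to GRCh38 with GSNAP and counted over exons with HTSeqGenie; the submitters' processing notes also name limma. The authors deposited raw read counts, whole numbers for each gene. The authors also deposited RPKM values, scaled by gene model length and depth with a further scaling per sample. The methods name RefSeq genes whereas the identifiers are Ensembl, and the library kit used is not stated for these samples.

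Symbols and positions were those of GENCODE release 44 (57532 identifiers matched), and promoters those of RefSeq. Genes kept by filterByExpr (16181) were brought to common quantiles, weighted with voom and tested with limma 3.58.1 in R 4.3.3, following the study's methods, with Benjamini-Hochberg adjustment over all genes tested. Calls needed a 2-fold change with an adjusted p no higher than 0.05. Intervals are at 95%. No library repeated another (chi-square per degree of freedom at least 8.18). Alternatives were edgeR 4.0.16, DESeq2 1.42.0, other scalings and filters, limma on log2(RPKM + pseudocount of 0.1 or 1), a term for the replicate number, and omission of each library. The code was tested on simulated data with log2 changes of 1 and 2 in size, larger than that of any member, so detection of changes as small as theirs was not tested.

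Members and lists were chosen with earlier results of these data known. Values in every library are given for 10 textbook regulators, members with an unadjusted p under 0.05 (5), the 4 lowest and 4 highest log2 fold changes, and the 4 largest gaps between dox libraries. Of the other mitosis genes, the 3 with the smallest p are named. Other members are given by their log2 fold change. Libraries held 15943025 to 24398411 counts, and INCENP had the fewest reads of the members.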

Additional observations from a re-analysis of the deposited data

How the results depend on the processing

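No member was called in any of the 13 alternatives. In 12 of them none had an adjusted p of at most 0.05. The median over the members stayed below 0 in all 13, between -0.14 and -0.11 with all 4 libraries and between -0.183 and -0.060 with 1 library left out, and between 46 and 50 members were below 0 with all libraries and between 35 and 49 with 1 left out. The counts of genes below 0 and the median over the replication genes (between -0.34 and -0.26 with 1 library left out) were alternatives added after the data were seen. When a library is omitted, its group keeps a lone sample, which is assumed to vary like the other group; with 1 left out, between 0 and 5 members were lower and between 0 and 1 higher at an unadjusted p under 0.05 (0 lower without no dox replicate 1, 1 without no dox replicate 2, 3 without dox replicate 1 and 5 without dox replicate 2), and 0 were called or reached an adjusted p of at most 0.05. Of all genes tested, 2.74% were lower at that p without no dox replicate 1 and 2.75% without no dox replicate 2. Without dox replicate 1 it was 3.11%, and without dox replicate 2 it was 2.38%. Between 2.40% and 3.33% were higher. As each of these fits rests on a lone sample in a group, no conclusion is drawn from their counts. The edgeR test with all 4 libraries had 8 members lower at that p, where 4.83% of all genes tested were. Of the 5 members under that p in the main fit, only HMMR and NCAPG stayed under it in every alternative with all 4 libraries. The median over the other mitosis genes was -0.12 after TMM scaling, -0.11 with edgeR, -0.11 with DESeq2 and -0.12 on log2(RPKM + 0.1), and between -0.105 and -0.081 with 1 library left out, where the main value was -0.09. The cause of these shifts was not tested.

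The groups share replicate numbers, but no label explains these numbers. With only 2 pairs, the correlation of same-numbered deviations was 0.134 across all genes tested and 0.507 across the members. With the replicate number as a block, 1 residual degree of freedom was left. By limma, 9 of the 56 members then had an adjusted p of at most 0.05, where 1154 of the 16181 genes tested did. The 9 were CDK1, CCNB1, FOXM1, BUB1B, UBE2C, SPC25, HMMR, PRC1 and NCAPG (limma, adjusted p from 3.56e-05). All 9 were lower with dox, and 0 members were called at 2-fold. The 1154 genes were not split by direction. In that fit 14 members were lower and 2 higher at an unadjusted p under 0.05, where 10.1% and 10.1% of all genes tested were. In either direction such a p was found for 28.6% of the members and 20.2% of all genes tested.

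With 1 library left out, TOP2A ranged from -0.25 to 0.17 and TPX2 from -0.35 to 0.12, each turning above 0 without no dox replicate 2 or without dox replicate 1. Of the other 18 members given in every library, none changed sign in any alternative that gave a value. INCENP gave none at a mean count of at least 50.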
